A study of Mus musculus with 5 samples.

Results

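The genes described are 36 members of the nuclear receptor superfamily other than the peroxisome proliferator-activated receptors (PPARs) and their retinoid X receptor (RXR) partners, in the liver of 5 mice. They were taken from the annotated probe sets that carry exactly 1 gene symbol, which named 34 of the 36 genes among 19938 genes in all. Nr1h2 and Nr2e3 had no such probe set and are not analysed here. Each of the 34 genes was read by 1 probe set, so no choice between probe sets was needed.

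Liver RNA came from 5 male wild-type C57BL/6N mice aged 5 to 6 months, with 1 array per mouse. All 5 had received streptozotocin, a compound toxic to pancreatic beta cells that is used to model type 1 diabetes, at 65 mg/kg on 5 days running when they were 10 to 16 weeks old. All 5 were then fed bezafibrate, a lipid-lowering fibrate that activates PPARs, for 8 weeks starting 2 weeks after the injections. The food held 0.25% or 0.5% bezafibrate by weight, and which of these a mouse ate is not given. Livers without streptozotocin or without bezafibrate were not analysed here, so the values show which receptor genes were detected in doubly treated livers and how far these mice differed, with no effect of either compound.

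Nuclear receptors are transcription factors, many of which are switched on by a small fat-soluble ligand such as a steroid, thyroid hormone, retinoic acid, an oxysterol or a drug. Most hold a zinc-finger domain that binds copies of a short DNA half-site, and a ligand-binding domain that recruits corepressors or coactivators. In liver, members of the family control drug metabolism, sterol and bile acid balance, the response to glucocorticoids and the clock. Several members, such as the liver X, pregnane X and thyroid hormone receptors, bind DNA together with an RXR.

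The half-site AGGTCA, which many of these receptors recognise, was searched on both strands in the 250 bases before each RefSeq start site of the members (assembly GRCm38.p6). RefSeq windows were at hand for 30 of the 34 genes. Of 45 windows, 5 held the half-site (11.1%), against 14.0% of the 32851 windows of all genes. These were 1 window each of Nr5a2, Nr6a1, Rarg, Thrb and Nr0b1. The 4 windows that held the half-site and belong to genes detected in these livers are printed 5′ to 3′ on the strand of the gene. The half-site (AGGTCA, or TGACCT where it lies on the other strand) is in capitals.
Nr5a2, chr1:136960449-136960698, minus strand: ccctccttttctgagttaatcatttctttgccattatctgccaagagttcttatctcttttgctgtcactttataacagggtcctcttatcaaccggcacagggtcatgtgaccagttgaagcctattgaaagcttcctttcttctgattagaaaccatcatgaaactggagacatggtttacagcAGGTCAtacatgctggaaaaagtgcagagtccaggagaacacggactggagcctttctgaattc
Nr6a1, chr2:38784516-38784765, minus strand: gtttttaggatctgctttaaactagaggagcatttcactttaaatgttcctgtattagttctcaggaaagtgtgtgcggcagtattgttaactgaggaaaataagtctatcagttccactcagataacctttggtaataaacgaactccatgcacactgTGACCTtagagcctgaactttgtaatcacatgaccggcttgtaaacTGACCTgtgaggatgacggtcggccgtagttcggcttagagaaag
Thrb, chr14:17660710-17660959, plus strand: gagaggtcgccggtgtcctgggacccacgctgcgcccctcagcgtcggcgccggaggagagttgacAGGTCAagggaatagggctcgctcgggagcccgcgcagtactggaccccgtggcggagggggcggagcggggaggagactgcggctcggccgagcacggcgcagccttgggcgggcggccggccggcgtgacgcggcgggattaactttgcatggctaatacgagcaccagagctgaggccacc
Rarg, chr15:102257523-102257772, minus strand: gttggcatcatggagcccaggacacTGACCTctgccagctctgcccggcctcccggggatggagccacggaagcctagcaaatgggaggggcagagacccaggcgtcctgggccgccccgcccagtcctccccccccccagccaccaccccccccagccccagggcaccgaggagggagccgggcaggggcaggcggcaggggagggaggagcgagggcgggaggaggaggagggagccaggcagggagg
The half-site began 64 bases before the start of Nr5a2, 184 before that of Thrb and 225 before that of Rarg. The window of Nr6a1 held 2 copies, which began 91 and 45 bases before its start. A match of these letters is a description and not a binding site.

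Presence was judged on each array against 1035 probe sets of olfactory receptor (Olfr) genes, taken as genes without expression in liver. The 95th percentile of these probe sets was taken as the floor. It was 5.70, 5.74, 5.89, 6.13 and 5.80 on the log2 scale in mice 1 to 5, and so was highest in mouse 4. By this measure 23 of the 34 receptor genes (67.6%) were above the floor on every array, as were 58.7% of all 19938 genes, a similar share. The 23 include at least 1 gene of each of the 9 receptor groups into which the list was divided. No receptor's level was ranked against another's, because brightness also varies with the probes.

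**Figure D1:**
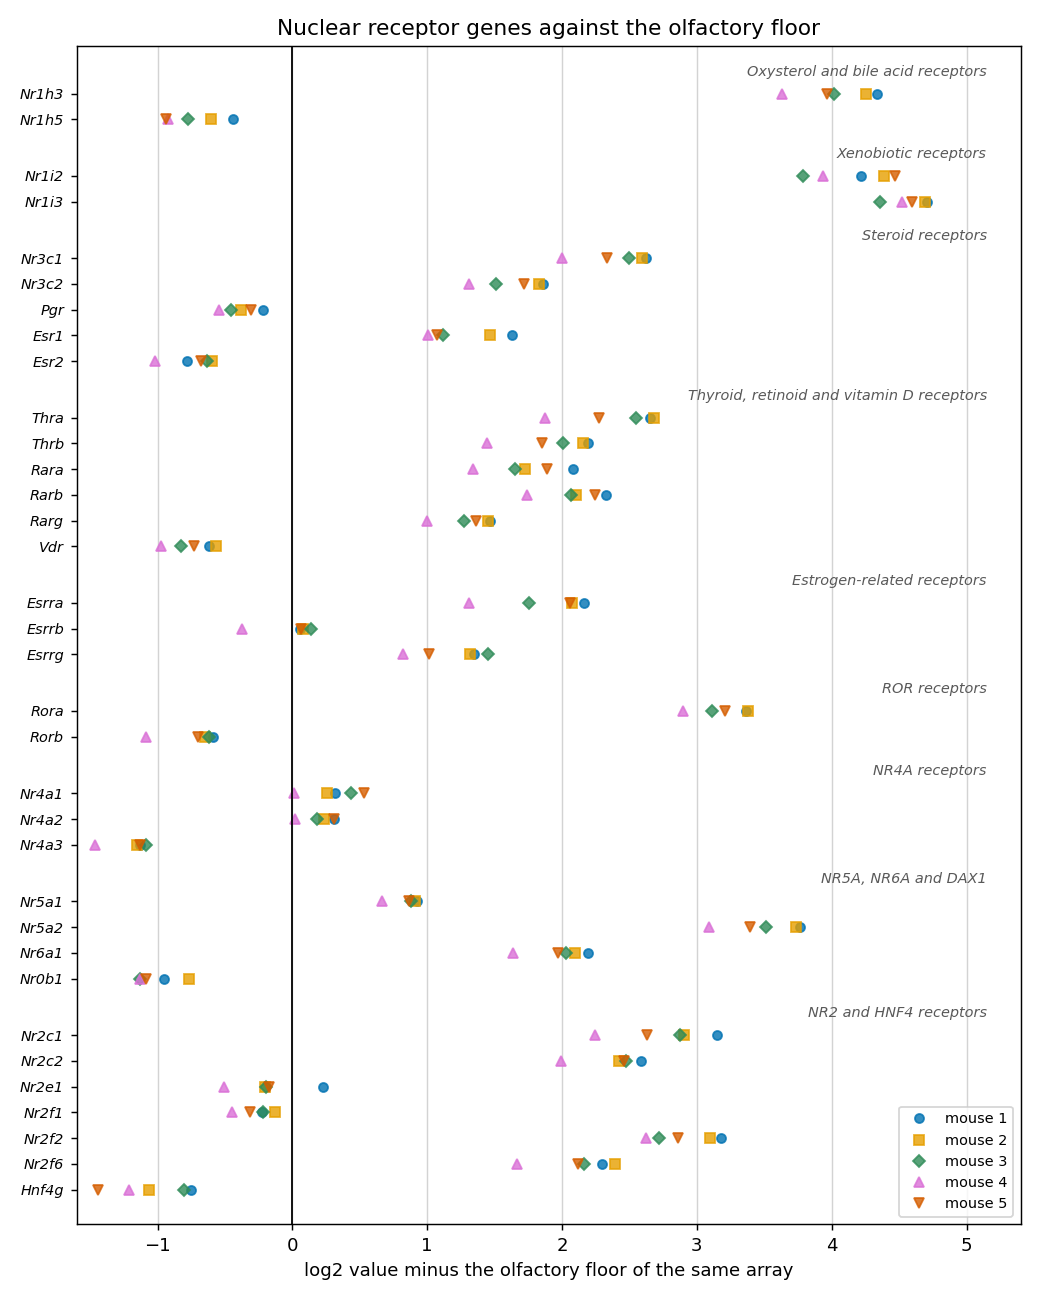
Log2 value of each of the 34 receptor genes in each mouse, after subtraction of the olfactory floor of the same array (line at 0), by receptor group. The 23 genes above the floor on all arrays lie wholly right of the line, and Esrrb and Nr2e1 lie on both sides of it, while the raised floor of mouse 4 shifts its points to the left.

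The receptors of drugs and oxysterols stood well clear of the floor. Nr1i3, the constitutive androstane receptor (CAR) that induces drug-metabolising enzymes, had 10.40, 10.43, 10.25, 10.65 and 10.39 in mice 1 to 5. It was highest in mouse 4 and lowest in mouse 3, with a mean of 10.42 ± 0.15 (SD, n = 5), and its SD was 0.08 without mouse 4. Nr1i2, the pregnane X receptor (PXR) that senses drugs and bile acids, had 9.91, 10.13, 9.67, 10.06 and 10.27, and was lowest in mouse 3 and highest in mouse 5. Nr1h3, the liver X receptor alpha that senses oxysterols, had 10.03, 9.99, 9.90, 9.76 and 9.76, with both lower values in mice 4 and 5. No olfactory probe set reached any of these 3 genes on any array. Nr1h5, a farnesoid X receptor paralog that responds to lanosterol, had 4.86 to 5.26 and stayed below the floor in all mice.

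Among steroid receptors, those of corticosteroids and the alpha estrogen receptor were detected. Nr3c1, the glucocorticoid receptor, had 8.32, 8.33, 8.38, 8.13 and 8.14, lower in mice 4 and 5 than in the other mice. Nr3c2, the mineralocorticoid receptor, had 7.50 ± 0.08 (SD, n = 5) and lay 1.31 to 1.86 log2 units above the floor. Esr1, the alpha estrogen receptor, had 7.32, 7.20, 7.00, 7.13 and 6.87, highest in mouse 1 and lowest in mouse 5. The beta estrogen receptor gene Esr2 (4.91 to 5.25) and the progesterone receptor gene Pgr (5.36 to 5.59) did not exceed the floor in any mouse. On each array, 13.3% to 31.7% of the olfactory probe sets were at least as bright as Esr2.

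Both thyroid hormone receptor genes were detected and had lower values in the same mice. Thra, which encodes receptor alpha, had 8.35, 8.42, 8.43, 8.00 and 8.07 in mice 1 to 5. Thrb, which encodes receptor beta, the main form in hepatocytes, had 7.89, 7.90, 7.90, 7.57 and 7.65. For both genes the values of mice 4 and 5 lay below those of the other 3 mice, by up to a 1.35-fold span for Thra and a 1.26-fold span for Thrb. In the RefSeq annotation Thra overlaps Nr1d1, a clock repressor gene on chromosome 11, and Nr1d1 was also lowest in mice 5 (10.61) and 4 (10.64) against 10.77 to 10.91 in the others. Nr1d2, with no protein-coding gene between it and Thrb on chromosome 14, went the other way. It was highest in mice 4 (9.70) and 5 (9.63), against 9.33 to 9.59 in the others. Nr1d1 and Nr1d2 were picked for this comparison after their values were seen, and the position of the probes was not analysed here. The variance of neither Thra nor Thrb passed the test described further on (limma, adjusted p = 0.973 and 0.992).

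All 3 retinoic acid receptor genes exceeded the floor. Rara had 7.78, 7.47, 7.53, 7.46 and 7.69, highest in mouse 1, and Rarb, the receptor that is itself a classical retinoic acid target, had 8.02, 7.84, 7.95, 7.87 and 8.04. Rarg had 7.16, 7.19, 7.16, 7.13 and 7.16, a 1.04-fold span, the smallest among the 34 receptors. Thrb and Rarb are neighbours on chromosome 14 with no protein-coding gene between them in RefSeq. Rarb was highest in mouse 5 (8.04), where Thrb was low, but nearly as high in mouse 1 (8.02), where Thrb had 7.89. Vdr, the vitamin D receptor, had 5.06 to 5.17 and lay below the floor in all mice.

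Of the orphan receptors of energy metabolism and the clock, Esrra, an estrogen-related receptor that drives mitochondrial genes, had 7.86, 7.81, 7.64, 7.44 and 7.86. It was lowest in mouse 4, without which its SD was 0.10 instead of 0.18. Esrrg, a paralog with similar targets, had 7.04, 7.06, 7.34, 6.95 and 6.81 and stood highest in mouse 3. Leaving that mouse out lowered the SD of Esrrg to 0.11, against 0.19 with all mice. Esrrb, known from embryonic stem cells, had 5.75 to 6.03 and exceeded the floor on 4 of 5 arrays, all but that of mouse 4. Rora, which activates the clock gene Arntl, had 9.06, 9.12, 9.00, 9.03 and 9.01, a 1.09-fold span, and no olfactory probe set reached it. Its paralog Rorb, known from brain and retina, had 5.04 to 5.27 and lay below the floor in all mice.

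The NR4A receptors, immediate-early genes that act without a known natural ligand, were at the edge of detection. Nr4a1 had 6.01, 6.00, 6.32, 6.14 and 6.33, and Nr4a2 had 6.00, 5.97, 6.07, 6.14 and 6.11. In mouse 4 they exceeded the floor by 0.01 and 0.02 log2 units. Between 2.32% and 4.64% of the olfactory probe sets were at least as bright as Nr4a1. Nr4a3 (4.57 to 4.80) was below the floor in all mice. Of 22 other immediate-early genes measured, 19 were above the floor on every array.

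Nr5a2, the liver receptor homolog 1 (LRH-1) that sustains bile acid synthesis, had 9.46, 9.47, 9.40, 9.21 and 9.19, again lower in mice 4 and 5. Nr5a1, its paralog known as steroidogenic factor 1 of adrenal and gonad, had 6.62, 6.65, 6.77, 6.79 and 6.66. This was 0.66 to 0.93 log2 units above the floor, but 1.06% to 1.55% of the olfactory probe sets were as bright or brighter. Nr6a1, the germ cell nuclear factor, had 7.89, 7.84, 7.92, 7.77 and 7.77. Nr5a1 and Nr6a1 are neighbours on chromosome 2 with no protein-coding gene between them in RefSeq. Nr0b1, or DAX1, an atypical receptor of adrenal and gonad without the usual DNA-binding domain, had 4.71 to 5.00 and was below the floor in all mice.

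The remaining receptors are mostly repressors and relatives of HNF4. Nr2c1 and Nr2c2, the testicular receptors 2 and 4, were both detected, Nr2c1 with 8.84, 8.65, 8.76, 8.37 and 8.43 and Nr2c2 with 8.24 ± 0.10 (SD, n = 5). Nr2c1 was lower in mice 4 and 5 and spanned 1.39-fold. Nr2f2, also called COUP-TFII and known from endothelium and mesenchyme as well as hepatocytes, had 8.87, 8.84, 8.61, 8.75 and 8.66. Endothelial cell markers, 11 of 11 above the floor, deviated from their own means by -0.04 to 0.07 as a list, and stellate cell markers, 12 of 12 above it, by -0.07 to 0.14. The part of these cells in the level of Nr2f2 was not tested. In whole liver, fewer cells of a type and less RNA per cell cannot be told apart. Nr2f6 had 7.99, 8.13, 8.05, 7.80 and 7.92, a mean of 7.98 ± 0.13, and was also lower in mice 4 and 5. Nr2f1 (5.47 to 5.68), Nr2e1 (5.54 to 5.92, above the floor in mouse 1 alone) and Hnf4g (4.36 to 5.08), the gut-enriched paralog of Hnf4a, were not detected throughout.

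The floor set which of the dim receptors count as detected. With the 99th percentile of the olfactory probe sets as floor, 19 receptors exceeded it on all arrays, and Esrrg, Nr4a1, Nr4a2 and Nr5a1 no longer did. Esrrg (6.952 in mouse 4, against a 99th percentile of 6.9523 there) missed it on that array. Without mouse 4 the count was 24, with Esrrb added. Of the 13 other nuclear receptors, 11 were measured, among them the PPAR and RXR genes, Hnf4a and Nr1h4, and all 11 exceeded the 95th percentile in every liver.

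Spread between the mice was small for all detected receptors. SDs of the 23 genes ran from 0.02 (Rarg) to 0.23 (Nr1i2) log2 units, with a median of 0.13, against a median of 0.12 over all 14239 tested probe sets. The median receptor spanned 1.22-fold between the lowest and the highest mouse, and the median probe set likewise 1.22-fold. Each variance was compared with that expected at the same level (limma, upper-tail F test against a robust mean-variance trend, Benjamini-Hochberg over all tested probe sets). By this test 0 of the 23 receptors varied more than expected, against 0.351% of all tested probe sets. At an unadjusted p under 0.05 it was 1 receptor, Nr1i2, against 6.38% of all tested probe sets.

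**Figure D2:**
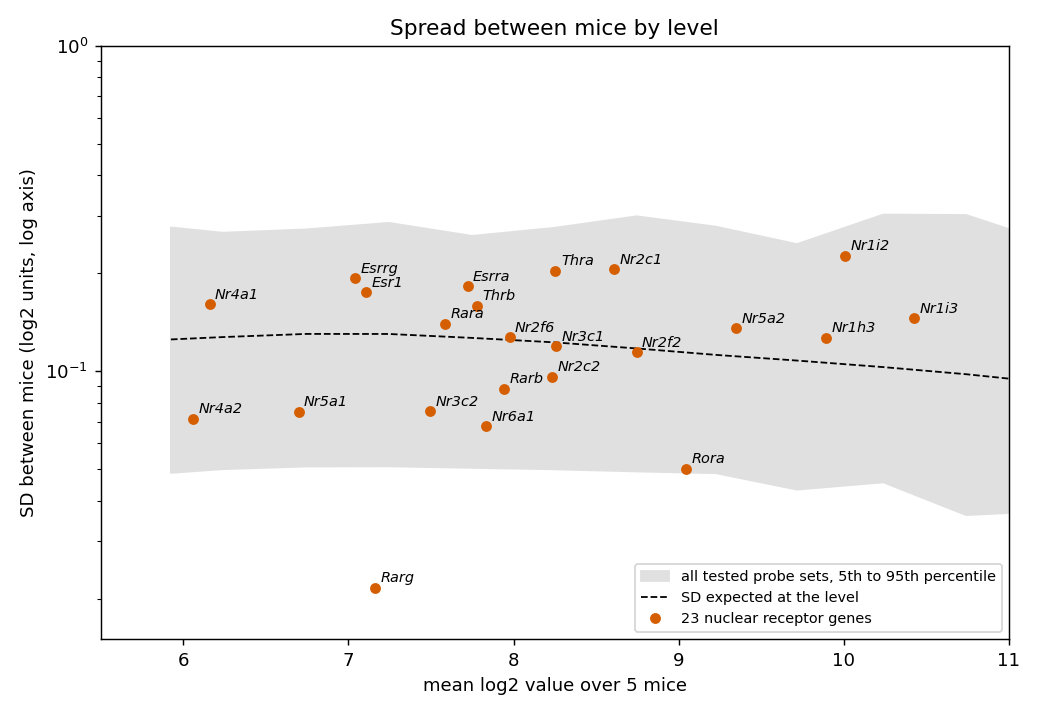
SD between the 5 mice against the mean log2 value for the 23 detected receptor genes, with the expected SD as a dashed line and the 5th to 95th percentile of all tested probe sets in grey (vertical log axis). Rarg lies below the grey band, Rora at its lower edge and the other receptors within it.

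Nr1i2 spanned 1.51-fold and its SD of 0.23 was 2.16 times the SD expected at its level (limma, unadjusted p = 0.0455, adjusted p = 0.765). Without mouse 3, which had the lowest value, its SD was 0.15. The next widest for their level were Nr2c1 (SD 0.21, 1.73 times the expected SD, adjusted p = 0.968 with limma) and Thra (SD 0.20, 1.66 times, adjusted p = 0.973 with limma). Rarg and Rora were narrowest for their level, with SDs 0.17 and 0.44 times the expected one. The SD of Rora was 0.03 without mouse 2 instead of 0.05, and with arrays centred on their medians the SDs of Rarg and Rora were 0.06 and 0.08. Over 14 alternative settings of the test, the adjusted p of a detected receptor was 0.716 or more. A p that misses the threshold does not show that the mice had equal levels.

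Several receptors had their lower values in the same mice, and genes in general were also most often lowest in mouse 4. The array of mouse 4 differed at the dim end too. Its median olfactory probe set was 4.74, against 4.26 to 4.38 on the other arrays, and its array median was the highest (6.31). A difference between mice and a difference between arrays cannot be told apart with 1 array per mouse. Of the 23 receptors, 11 had their lowest value in mouse 4, against 36.7% of the 11707 genes above the floor, and 3 in mouse 5, against 22.2%. The share of all genes that were lower in both mice 4 and 5 than in every other mouse was not counted. Lower values in these mice are therefore not shown to be particular to receptors. The mean deviation of the 23 receptors from their own means was 0.06, 0.03, 0.02, -0.07 and -0.04 in mice 1 to 5, against 0.04, 0.03, -0.0026, -0.06 and -0.0019 for all genes above the floor. After quantile normalization of the arrays, 7 receptors were lowest in mouse 4 and 7 in mouse 5, and with arrays centred on their medians 13 and 2. The matching shares of all genes were not counted under these scalings. The mice in which receptors were lowest thus depended on the scaling, while the mean deviation in mice 4 and 5 stayed negative (-0.07 and -0.04 after quantile normalization, -0.12 and -0.03 with centred medians). For all genes above the floor it was much the same in mouse 4 (-0.06 and -0.11 under these scalings). In mouse 5 it was -0.0040 and -0.00074 for all genes.

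**Figure D3:**
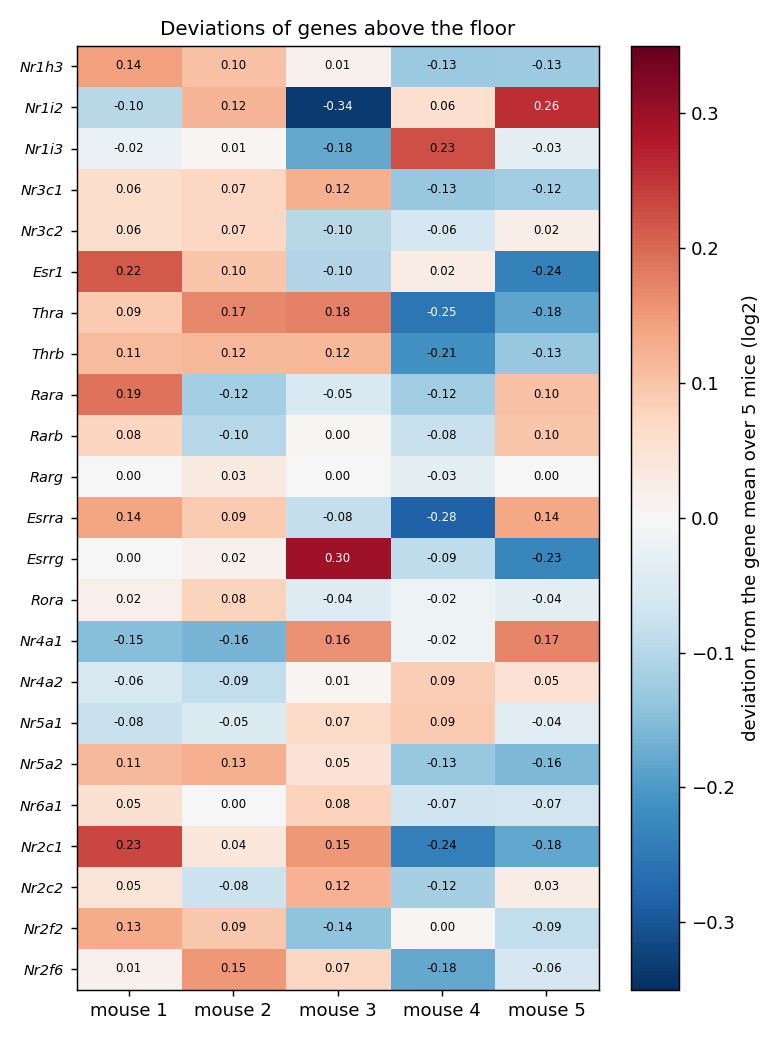
Deviation of each of the 23 detected receptor genes (down) from its mean over the 5 mice (across), in log2 units of the deposited values, red for higher and blue for lower. Nr1h3, Nr3c1, Thra, Thrb, Rarg, Esrrg, Nr5a2, Nr6a1, Nr2c1 and Nr2f6 are lower in mice 4 and 5 than in the other mice (for Rarg by less than the decimals printed), and Nr1i2 is lowest in mouse 3. The share of all genes lower in both mice 4 and 5 was not counted.

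Genes listed as targets of the receptors were set beside them. Whether each listed gene responds to its receptor in mouse liver was not tested. The 10 target lists hold 114 distinct genes, of which 92 were tested, and 8 of these varied more than expected at their level (limma, adjusted p between 0.00385 and 0.0408), against 0 of 23 receptors and 0.351% of all tested probe sets. Their median SD was 1.62 times the expected one, against 1.09 times for the receptors and 0.97 times for all tested probe sets. Targets are regulated by more than 1 receptor and by hormones and nutrients, and several lists share genes. The lists were chosen with earlier results of these data known, so their share of calls is not independent of these data. At the 0.351% of all tested probe sets, 0 calls among 23 receptors do not set the receptors apart. Without mouse 4, limma called 0 of the 8 (adjusted p between 0.0875 and 0.183), and 0 probe sets in all (853 at an unadjusted p under 0.05). It also called 0 of the 8 when probe sets without a single symbol were tested too, and 1, Lcn2, without the robust step.

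**Figure D4:**
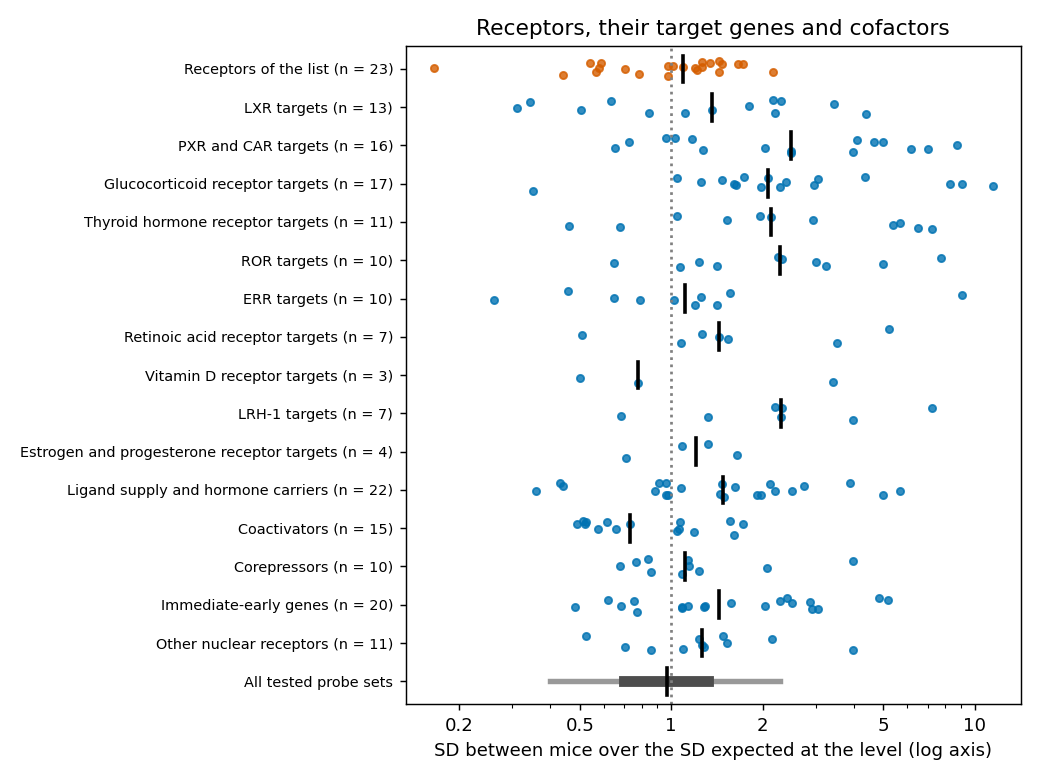
SD between mice divided by the SD expected at the same level (log axis), for the detected receptors, for the tested genes of each target, ligand and cofactor list, and for all tested probe sets (25th to 75th percentile as a thick bar, 5th to 95th as a thin one). Black ticks are medians, 1.09 for the receptors, 2.48 for PXR and CAR targets and 0.97 for all tested probe sets.

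Targets of PXR and CAR had a median of 2.48 times the expected SD (16 tested), against 2.16 and 1.44 times for Nr1i2 and Nr1i3 themselves. Cyp2b13, a cytochrome P450 gene, had 8.22, 8.72, 6.99, 9.31 and 8.44, and Slco1a4, a transporter of organic anions, had 8.42, 6.20, 5.94, 6.66 and 8.14. Both varied more than expected (limma, adjusted p = 0.031 and 0.0125) and both were lowest in mouse 3, as were Nr1i2 and Nr1i3. In mouse 3 Slco1a4 lay only 0.05 log2 units above the floor. The list of 16 deviated by -0.39 on average in mouse 3 and by 0.01 to 0.17 in the others. Low values in mouse 3 were not particular to this list. Targets of the glucocorticoid receptor (-0.25) and of the estrogen-related receptors (ERR, -0.17) were also lowest there as lists. These 2 lists are not independent, because both hold Pdk4, which had 9.745 in mouse 3 against 10.685 to 11.949 elsewhere. The glucocorticoid receptor list also holds Lcn2 and Mt2, both lowest in mouse 3 (8.119 and 11.025). Means of the lists without these wide genes were not computed. Those of the thyroid hormone receptors (0.25) and of ROR (0.23) were highest there. Cyp2b13 also lost its call without mouse 2 (adjusted p = 0.0598, limma) or mouse 3 (0.304), where its SD was 0.47 instead of 0.86.

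Targets of the glucocorticoid receptor had a median of 2.08 times the expected SD (17 tested). The 3 that passed were Lcn2, an acute-phase gene, Pdk4, a kinase gene that restrains glucose oxidation, and Mt2, a metallothionein gene (limma, adjusted p = 0.00385, 0.0108 and 0.0155). Their SDs were 1.27, 0.86 and 0.69, against an SD of 0.12 for Nr3c1 itself, and all 3 had their lowest value in mouse 3. Nr3c1 was highest in that mouse, but only narrowly (8.38, against 8.33 in mouse 2 and 8.32 in mouse 1). Mt2 and Pdk4 also lost their calls without mouse 3 (limma, adjusted p = 0.13 and 0.0841), with SDs of 0.44 and 0.58 instead of 0.69 and 0.86. Kupffer cell and macrophage markers, 10 of 11 above the floor in all mice, deviated by 0.34 in mouse 1, where Lcn2 was highest, and by -0.22 to 0.10 in the others. Their part in the spread of Lcn2 was not tested.

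Targets of the thyroid hormone receptors had a median of 2.14 times the expected SD (11 tested), and 2 passed. Thrsp, a regulator of fat synthesis, had 10.29, 9.35, 9.95, 8.97 and 8.51 (limma, adjusted p = 0.0408), lower in mice 4 and 5, as Thra and Thrb were. Dio1, the deiodinase that activates thyroid hormone and is also a target, had 8.21, 8.29, 9.21, 8.14 and 7.24, with an adjusted p of 0.0697 (limma). It too had its lowest values in mice 4 and 5. So did Me1, Klf9, Gpd2 and Fasn of this list, while Hr, G6pc, Cyp7a1, Bcl3 and Cpt1a did not. Cpt1a was highest in mice 5 (11.75) and 4 (11.71). As a list, these targets deviated by 0.18, -0.10, 0.25, -0.15 and -0.18 in mice 1 to 5. Thrsp lost its call without any one of mice 1 to 4 (limma, adjusted p from 0.065 to 0.166) and kept it without mouse 5 (0.0251). Cyp7a1, the first enzyme of bile acid synthesis and also listed for LRH-1, had 9.46 in mouse 2, against 10.94 to 11.20 elsewhere (limma, adjusted p = 0.0302). Its SD without mouse 2 was 0.12 instead of 0.71 (adjusted p = 0.991). Neither Thra, Thrb nor Nr5a2 was lowest in mouse 2, and what set Cyp7a1 apart there was not tested.

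Among ROR targets, with a median of 2.29 times the expected SD (10 tested), Elovl3 passed (limma, adjusted p = 0.0214). Elovl3, a fatty acid elongase gene, had 10.99, 11.36, 11.42, 10.57 and 9.58, a 3.58-fold span, against 1.09-fold for Rora. It also lost its call without mouse 2 (limma, adjusted p = 0.0598) or without mouse 5 (0.0683), where its SD was 0.39 instead of 0.75. Cyp7b1, an oxysterol hydroxylase gene of the same list, had an SD of 0.54 (adjusted p = 0.0942, limma).

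The other target lists gave 0 or 1 call each. LXR targets had a median of 1.37 times the expected SD and 0 of 13 passed, with 5 at an unadjusted p under 0.05 (limma). Pltp, a phospholipid transfer protein gene (SD 0.39), and Scd2, a desaturase gene (SD 0.32), were widest. LRH-1 targets had 1 call of 7, Cyp7a1, and ERR targets 1 call of 10, Pdk4, with a median of 1.11 times the expected SD. Retinoic acid receptor targets had 0 calls of 7 (2 at an unadjusted p under 0.05 with limma), led by Rarres1 (SD 0.56) and Tgm2 (SD 0.35, and 0.22 without mouse 5). Estrogen and progesterone receptor targets had 0 calls of 4 (0 at an unadjusted p under 0.05 with limma), led by Tff3 (SD 0.22) and Wnt4 (0.14). Of 5 measured vitamin D receptor targets, 3 were bright enough on average to be tested, and 0 passed (1 at an unadjusted p under 0.05 with limma). The widest were S100g (SD 0.45, and 0.19 without mouse 5) and Camp (SD 0.10, and 0.05 without mouse 1), and Camp exceeded the floor in 4 of the 5 mice.

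Genes that supply ligands to the receptors or carry their hormones were measured too. Of 29 measured, 22 exceeded the floor in all mice, and 0 passed the variance test (7 at an unadjusted p under 0.05 with limma). The widest were Dio1 (SD 0.70) and Cyp7b1 (SD 0.54).

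Cofactor genes had 0 calls. Coactivator genes had a median of 0.73 times the expected SD, and 0 of 15 passed (0 at an unadjusted p under 0.05 with limma). The widest were Prmt1 (SD 0.23, and 0.14 without mouse 4), an arginine methyltransferase gene, and Pprc1 (0.21), of the PGC-1 family. Corepressor genes had a median of 1.11 times the expected SD, and 0 of 10 passed (1 at an unadjusted p under 0.05 with limma). The widest was Nr0b2, the small heterodimer partner that represses LRH-1, with 10.61 in mouse 2 against 9.59 to 9.83 elsewhere (SD 0.42, and 0.10 without mouse 2), followed by Nrip1 (SD 0.26). Other nuclear receptor genes had a median of 1.26 times the expected SD, and 0 of 11 passed (2 at an unadjusted p under 0.05 with limma), with Nr0b2 (SD 0.42) and Pparg (SD 0.25) widest. Immediate-early genes, the company of the NR4A receptors, had 0 calls of 20 (8 at an unadjusted p under 0.05 with limma), Gadd45g (SD 0.65) and Myc (SD 0.61, and 0.34 without mouse 5) being widest, beside SDs of 0.16 and 0.07 for Nr4a1 and Nr4a2. After quantile normalization or with centred medians the SD of Nr4a2 was 0.04.

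The tissue label was checked with markers. All 10 measured hepatocyte markers exceeded the floor in all mice, and their mean deviation lay between -0.06 and 0.04, with Fga (SD 0.25) and Tat (SD 0.14, and 0.09 without mouse 4) widest. Cholangiocyte markers exceeded it for 2 of 5 genes (deviations of -0.16 to 0.18), lymphocyte markers for 2 of 8 (-0.12 to 0.20), skeletal muscle markers for 4 of 7 (-0.21 to 0.43) and erythroid markers for 2 of 2 (-0.33 to 0.45). Array medians lay between 6.22 and 6.31, and Pearson's r between arrays across probe sets, which are not independent replicates, between 0.971 and 0.993.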

How the data were processed

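The values are on the log2 scale, deposited by the authors as a single number for each probe set on each array. RMA and Affymetrix Expression Console 1.2 are named as tools in the submitters' processing notes, with neither order nor settings. RMA compresses differences near background. Of 35556 probe sets, 21789 carried 1 symbol in the platform annotation, 1621 several and 12146 none. A gene with several probe sets was read by the brightest on average.

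The variance test used limma 3.58.1 and statmod 1.5.0 in R 4.3.3. An intercept was fitted to the 5 arrays (4 residual degrees of freedom), and the variance was set against the trend of fitFDistRobustly (prior degrees of freedom 6.17). Tested were 14239 probe sets with 1 symbol whose mean exceeded the mean floor of 5.85, at an adjusted p of 0.05. The code was tested on simulated data. Python 3.11.15, numpy 2.4.6, pandas 2.3.3 and matplotlib 3.10.9 did the rest.

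The members and lists were chosen with earlier results of these data known. Named were all members, the 2 tested genes with the largest SD of each other list and each listed gene that passed. The labels call the arrays biological replicates. Spread between mice includes technical spread, and the number of arrays limits the precision. Alternatives changed the normalization, the floor, the filter, the variance fit, the probe sets and the mice used.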

Additional observations from a re-analysis of the deposited data

Results flagged for a closer look

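For each gene named, the gap between the most extreme mouse and the next was divided by the range over the 5 mice, and a share above 0.71 was noted, which chance gives in about 1 of 20 genes. None of the 34 receptor genes reached it. Of the 42 other genes named, 7 did. These 42 were named for their wide spread, which a single extreme mouse raises, so the share given by chance does not apply to them. Cyp7a1 (0.848) and Nr0b2 (0.762) were set apart by mouse 2, which had low Cyp7a1 and high Nr0b2. Any link between them was not tested. Ppargc1a (0.774), a coactivator of ERR and other receptors, had 8.20 in mouse 4, against 7.72 to 7.82 elsewhere. The macrophage markers Adgre1 (0.741) and Timd4 (0.826) and the muscle marker Ckm (0.773) were highest in mouse 1. Cd8a (0.767), a lymphocyte marker near the floor, was lowest in mouse 4.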

How the results depend on the processing

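The count of receptors above the floor was 19 to 24 over 11 alternatives, and that of receptors with a variance above expected was 0 in all 14 alternatives of the test, with 0 to 2 at an unadjusted p under 0.05 (limma). All 322 values of single receptors stayed on their side of the threshold. Over all tested probe sets limma called 50, and 148 with arrays centred on their medians, 29 when only probe sets above the floor on all arrays were tested, 17 with a variance fit that was not robust, 23 with a fit that ignored the level, and 0 (1344 at an unadjusted p under 0.05) with all probe sets with or without 1 symbol. Leaving out 1 mouse gave 0 (without mouse 4, 853 at an unadjusted p under 0.05) to 66 calls (without mouse 1), and 29 without mouse 3. The cause of these moves was not tested. Of the 8 target genes that passed, 8 passed with centred medians, 5 after quantile normalization, 1 without the robust step, 2 without the trend and 0 with all probe sets. No paired analysis was possible because the mice form 1 group. Signal near background limits the dim receptors: Nr4a1, Nr4a2 and Nr5a1 lay within the top 5% of olfactory probe sets.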

Other observations

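Some genes outside the rule for named genes were picked after their values were seen, and these values were not tested further. Sult1e1, the sulfotransferase that inactivates estrogen, had 6.25, 4.02, 3.72, 3.90 and 5.12 in mice 1 to 5, a 5.80-fold span, and exceeded the olfactory floor in mouse 1 alone. The same 2 mice, 1 and 5, had the higher values of the listed PXR and CAR target Slco1a4 and of Lcn2. Hsd11b1, which regenerates active glucocorticoid in liver, had 10.15, 9.92, 9.60, 9.42 and 9.07, with an SD of 0.42, against 0.12 for Nr3c1 (limma, adjusted p = 0.203 for Hsd11b1).

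Arntl, the clock gene that Rora activates, had 7.21, 7.39, 7.27, 6.34 and 6.90, a 2.08-fold span, against 1.09-fold for Rora, and its SD was 0.21 without mouse 4 instead of 0.42. The drug-metabolising genes Cyp3a11 and Cyp2b10, the classical PXR and CAR targets, spanned 1.27-fold and 1.64-fold, and both were lowest in mouse 3 (12.68 and 8.06), as Nr1i2 and Nr1i3 were.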
